A study of Homo sapiens with 6 samples.

Results

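The genes described here encode the proteasome, the barrel-shaped protease that degrades ubiquitin-tagged proteins, together with the chaperones that assemble it. They were chosen by symbol alone, as the rows of the deposited count table named PSM with 1 letter from A to G and a number, plus POMP. PSMB8 and PSMB9, subunits of the inducible immunoproteasome, were left out of this choice and are given further on with the partner genes. The choice gave 47 of 25987 genes with a symbol, and 45 of the 47 had enough counts to be tested among 12944 genes.

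RNA was sequenced from 786-O cells, an established line of human clear cell kidney cancer that carries no engineered change per its wild type label. In 3 libraries the cells had been adapted to copper, given as CuSO4 that was first bound to serum proteins overnight in the cold. The 3 control libraries came from cells whose serum was handled in the same way without copper, and all 6 used DMEM/F12 medium with serum. The series text gives 1 copper dose of 30 uM, whereas 30, 31 and 32 uM stand in the labels of copper libraries 1, 2 and 3. These libraries were taken as 1 group, and no comparison between doses was made. All 6 libraries come from 1 cell line. They also carry the numbers 6, 7 and 9 in copper and 1, 2 and 4 in control, none shared between the groups. It is not known here whether these numbers mark separate cultures, so p-values measure only the spread between these libraries, which may be technical.

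The core particle is a stack of outer alpha rings, which gate the entrance, and inner beta rings, which carry the proteolytic sites. The regulatory particle caps it with a base, whose ATPases unfold substrates, and a lid, which removes ubiquitin. Other caps, the PSME activators, open the core without ubiquitin, and dedicated chaperones build each piece. In mammalian cells the transcription factor NFE2L1 raises the genes of many subunits together when proteasome activity is lost, through antioxidant response elements in their promoters, and the related factor NFE2L2 binds similar elements.

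The core of that element was searched as TGACNNNGC on both strands, in RefSeq promoter windows (GRCh38.p14) of 250 bases before to 50 bases after each start. It was found in 14 of the 41 members with a promoter entry (34.1%), against 19.6% of 10516 tested genes and 16.1% of all 27305 genes with an entry. With only the bases before the start, 12 members (29.3%) held it, against 16.1% of tested genes and 13.2% of all genes. PSMA7, PSMB1, PSMB6, PSMB7, PSMD4 and PSMG3 had no entry in the table. The matches that lay wholly before the start were 34 to 183 bases upstream of it. These distances run to the start of the entry, which for PSMG1, at 183, is also not the first RefSeq start. PSMA4, PSMB3 and PSMC5 were the only ring and ATPase members with such a match. A gene can have several entries, 1 for each start, and a match in any of them was counted (49 entries of the 41 members, 15303 entries of the 10516 tested genes). The matches of PSMA4 and PSMC5 precede a later start, and they lie after the first RefSeq start of these genes, at 78540405 and 63827431. 1 match each from an outer ring, an inner ring, the base and the lid is shown, read along the strand of the gene, with the 9 bases of the motif in capitals. A match describes the letters in the window and does not show that a factor binds there.
PSMA4, chr15:78540644-78540684, plus strand, 126 bases before a later start: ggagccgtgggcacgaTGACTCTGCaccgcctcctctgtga
PSMB3, chr17:38752621-38752661, plus strand, 104 bases before the start: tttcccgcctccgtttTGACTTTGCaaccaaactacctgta
PSMC5, chr17:63827648-63827688, plus strand, motif in reverse, 57 bases before a later start: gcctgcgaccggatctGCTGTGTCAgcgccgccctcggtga
PSMD12, chr17:67366718-67366758, minus strand, 165 bases before the start: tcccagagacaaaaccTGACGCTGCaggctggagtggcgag

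The libraries held 16301772 to 25079913 counts. Replicate 3 stood apart from replicates 1 and 2 in both groups. Counts of copper replicate 3 differed from those of the other copper libraries with a chi-square per degree of freedom of 57.8 and 61.1, against 5.55 between copper replicates 1 and 2. The same figures were 20.6 and 19.8 for control replicate 3, against 5.04 between control replicates 1 and 2. Markers of the line were present, with PAX8, a renal lineage factor, at 123 to 147 CPM, the count normalised to library size. The leukocyte markers PTPRC and CD3E, the endothelial markers PECAM1 and CDH5 and the tubule gene UMOD stayed at or under 0.22 CPM, and the red cell gene HBB had no count. COL1A1 and PDGFRB, genes of fibroblasts and mural cells, were at 2.07 to 8.68 and 3.54 to 6.67 CPM, and the hepatocyte gene ALB at 0.161 to 0.610.

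Nearly all parts of the proteasome were expressed. The exceptions were PSMA8, a testis form of an alpha subunit, with 0 counts in every library, and PSMB11, the beta subunit of thymic epithelium, with 1 count in control replicate 3. Neither was tested. Levels were compared between genes as CPM per kilobase of the longest annotated transcript, averaged over the 6 libraries. On this scale the alpha subunit PSMA7 was at 355 and the trypsin-like catalytic subunit PSMB7 at 249, the highest of their rings. The chymotrypsin-like subunit PSMB5 was at 61.7 and the caspase-like subunit PSMB6 at 100.1. Among the base ATPases the highest level was that of PSMC3, at 103 CPM per kilobase, and in the lid that of PSMD8, at 106. With the median transcript length in place of the longest, PSMC2 (159 against 140.5 for PSMC3) and PSMD3 (139 against 126 for PSMD8) were the highest of these groups. The inducible beta subunit PSMB10 was far lower, at 4.89.

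Subunits of 1 ring are needed in equal numbers, yet 2 of them stood far below their ring. PSMA6, an alpha subunit, had 63 to 105 counts per library and 3.78 CPM per kilobase, and the median of the other alpha subunits was 10.8 times as high. PSMC1, a base ATPase, had 14 to 27 counts and 0.218 CPM per kilobase, and the median of the other base ATPases was 324 times as high. With the median transcript length in place of the longest, these ratios were 17.6 and 192. Of the 50-base windows in the longest coding transcript of PSMA6, 85.6% also occur in a transcript of another gene, pseudogenes among them. For PSMC1 the share was 29.0%, in a longest transcript of 4448 bases, where the median length of its transcripts is 1389 bases. RefSeq names 4 pseudogenes after PSMA6 and 13 after PSMC1, and it lists PRORP-PSMA6 over the first gene and NRDE2 over the second. In the deposited table PSMA6 lies on chromosome 14 at 35292317 to 35317479 and PSMC1 on chromosome 14 at 90257939 to 90272625, both on the plus strand, and the submitters' processing notes name GRCh38. How the authors counted reads that match several genes is not given in the sources used here, so the levels of both genes are uncertain.

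Over all tested members, 8 had at least 20% of their windows shared with another gene, namely PSMA1, PSMA2, PSMA6, PSMB10, PSMC1, PSMC6, PSMD4 and PSMD9. Their median level was 11.8 CPM per kilobase, against 61.7 for the other 37. With the median transcript length the 2 values were 16.4 and 91.2. A share of windows is a property of the annotation, and whether reads were lost from these genes was not tested. PSMG4, a chaperone of the core, was also low with its longest transcript, at 3.82, but not with the median length, at 21.4.

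**Figure D1:**
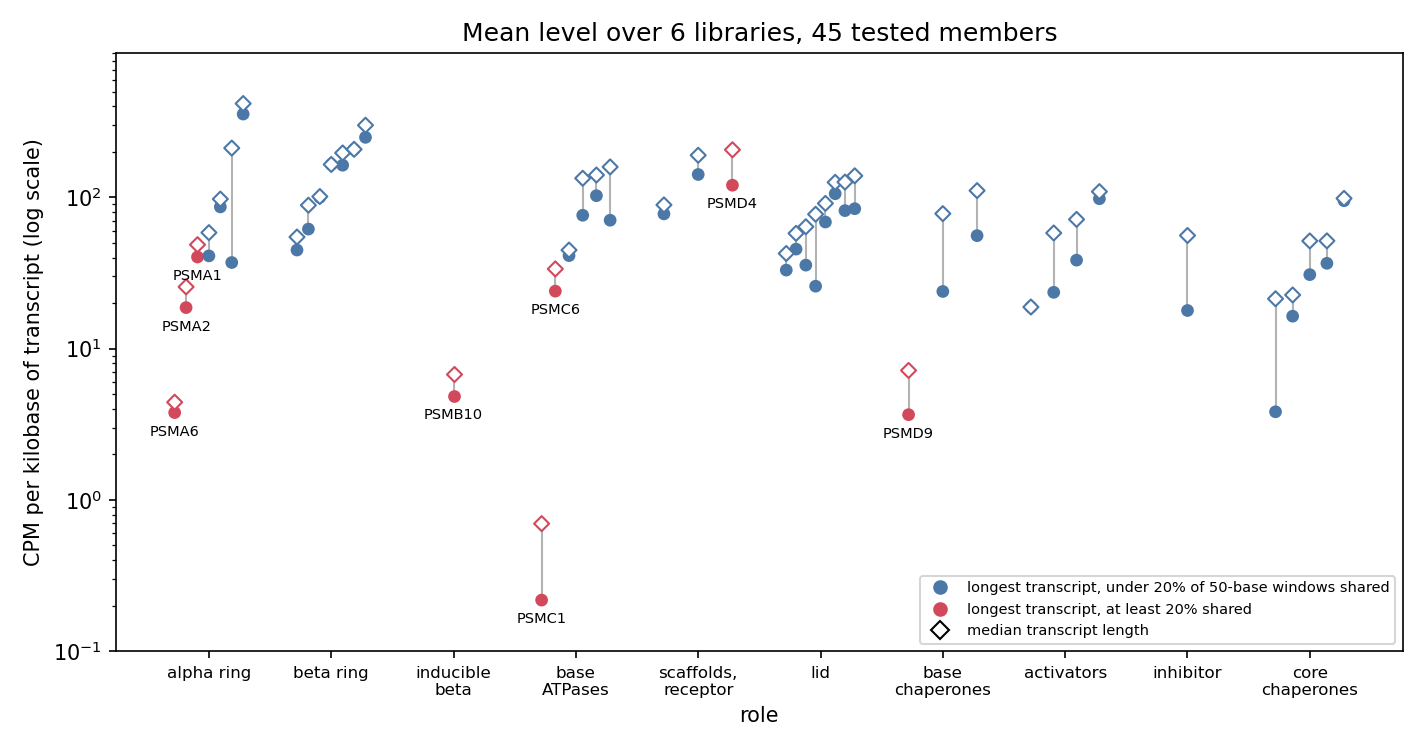
Mean level of each tested member over the 6 libraries, in CPM per kilobase of transcript on a log axis, by role. Circles use the longest annotated transcript and diamonds the median length; red marks the 8 members with at least 20% of 50-base windows shared with another gene, and PSMC1 at 0.218 and PSMA6 at 3.78 lie far under their rings.

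The comparison of the study was copper against control. No member passed an adjusted p of 0.05 in edgeR's quasi-likelihood test with Benjamini-Hochberg adjustment, and neither did any of the 12944 genes (0% called); every adjusted p of a member was 1.00. At an unadjusted p under 0.05 there were 3 members (PSMA5, PSMB4 and PSME2, 6.67%), against 3.52% of all genes. DESeq2 called 0 members and 0.209% of all genes, or 0.448% with a block for the replicate number, and limma-voom called 0 members and 0%. With the replicate number as a block, edgeR called 0 members and 0.17% of all genes, with a smallest adjusted p of 0.536 among members, and 5 members (11.1%) had an unadjusted p under 0.05, against 8.41% of all genes. The members were nevertheless uneven in direction. The estimate was higher in copper for 41 of 45 members (91.1%), against 51.4% of all genes, and the median log2 fold change was 0.11 against 0.01 over all genes.

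That median is a level 8.20% higher in copper. The summed level of all 47 members was 5750, 5573 and 5617 CPM in copper replicates 1, 2 and 3 (mean 5647 ± 92.1, SD, n = 3). In control it was 5416, 5221 and 4979 CPM (mean 5205 ± 219, SD, n = 3). The lowest copper library lay above the highest control library. The single estimates ran from −0.10 for PSMA6 to 0.23 for PSMB4, with standard errors from 0.08 to 0.31. For 43 of 45 members the 95% interval stayed within a change of 1.5-fold in either direction, and for 12 members within 1.25-fold. These errors and intervals come from the fit without a block, so they hold any shift of a replicate number shared by both groups. With the replicate block the standard error was 0.09 in place of 0.17 for PSMD1 and 0.09 in place of 0.21 for PSME3. The levels are shares of the counts, and in bulk RNA fewer cells with a transcript and less of it per cell cannot be told apart.

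In 11 of 45 members (24.4%) all copper libraries lay above all control libraries, against 5.45% of all genes. These were the rings' PSMA1, PSMA5, PSMB2, PSMB4 and PSMB7, the regulatory particle's PSMC5, PSMD2 and PSMD4, the activator PSME2, and the chaperones PSMG4 and POMP. No member had all copper libraries below all controls, against 5.35% of all genes. Copper was above control in all 3 replicate numbers for 28 members (62.2%), against 17.7% of all genes. Members are counted from the same 6 libraries, so these shares are a description and carry no p. The members' median log2 difference was 0.08 in replicate 1, 0.07 in replicate 2 and 0.16 in replicate 3, where it was largest.

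**Figure D2:**
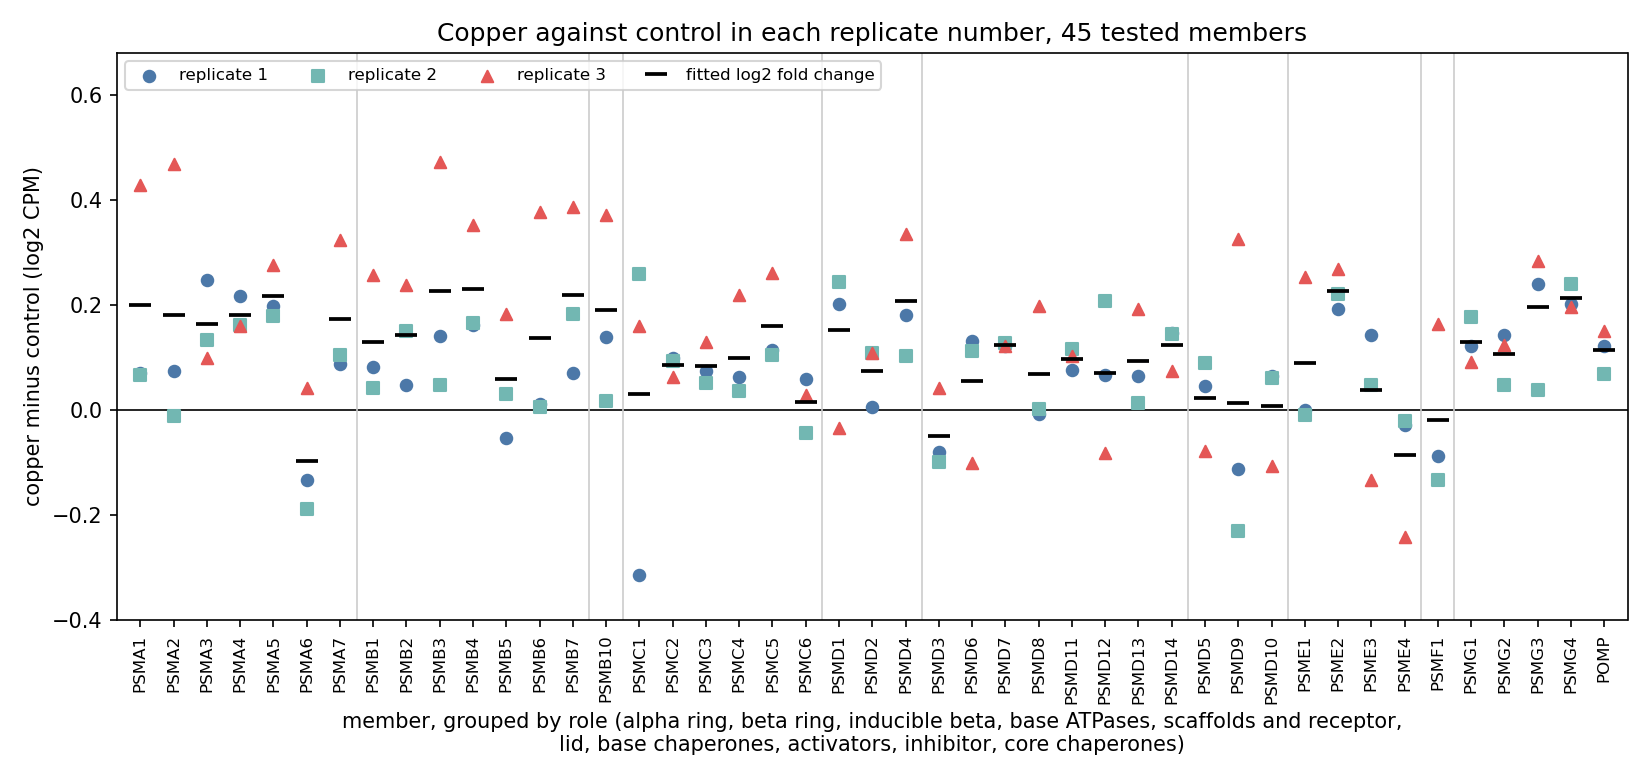
Copper minus control in log2 CPM for each tested member, in replicates 1, 2 and 3 (circles, squares, triangles), with the fitted log2 fold change as a bar; vertical lines part the roles. Most points lie above 0, and in both rings of the core particle the replicate 3 triangles are mostly the highest, with a median of 0.30 over the 14 ring subunits against 0.08 in replicates 1 and 2.

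The 14 tested ring subunits of the core particle had a median log2 fold change of 0.18, with 13 of 14 higher in copper, and none passed the test. The median of these 14 was 0.08 in replicate 1, 0.08 in replicate 2 and 0.30 in replicate 3. In the alpha ring 6 of 7 were higher (median 0.18), and in the constitutive beta ring 7 of 7 (median 0.14). The base scaffolds and ubiquitin receptor had a median of 0.15, so the beta ring alone was not above them.

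PSMA5, the alpha subunit with the largest estimate, was at 171, 160.1 and 162 CPM in copper and 149, 141 and 134 CPM in control. All copper libraries were above all controls. The estimate was a log2 fold change of 0.22 ± 0.09 (SE), at an unadjusted p of 0.0426 and an adjusted p of 1.00 in edgeR. PSMA6, which had the only lower estimate of the ring, was at 3.84, 3.65 and 3.78 CPM in copper and 4.22, 4.17 and 3.67 in control. Its groups overlapped, and its log2 fold change was −0.10 ± 0.16 (SE).

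PSMB4, a non-catalytic beta subunit, had the largest estimate of all members in this fit. It was at 212, 199.9 and 236 CPM in copper and 189.6, 178 and 185 CPM in control, with no overlap. The log2 fold change was 0.23 ± 0.10 (SE), with an unadjusted p of 0.0468 and an adjusted p of 1.00 in edgeR. With the trend of counts in transcript length and GC removed it was 0.12, below PSMA5 (0.26), PSMG4 (0.24) and PSME2 (0.14).

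In each constitutive catalytic subunit copper replicate 3 was the highest library, and leaving it out lowered the estimate. PSMB7 was at 246, 246 and 295 CPM in copper and 234, 217 and 226 CPM in control, with a log2 fold change of 0.22 ± 0.10 (SE). All copper libraries lay above the controls, with replicate 3 the highest, and without copper replicate 3 the estimate was 0.13. PSMB6 was at 87.4, 83.4 and 103 CPM in copper and 86.6, 83.0 and 79.4 CPM in control, with a log2 fold change of 0.14 ± 0.11 (SE). Its copper and control values were nearly equal in replicates 1 and 2 and parted in replicate 3, and without copper replicate 3 the estimate was 0.04. PSMB5 was at 75.7, 76.3 and 92.4 CPM in copper and 78.5, 74.8 and 81.4 CPM in control, with a log2 fold change of 0.06 ± 0.11 (SE), and without copper replicate 3 this was −0.04. PSMB10, which takes the place of PSMB7 in the immunoproteasome, was at 6.83, 4.71 and 7.55 CPM in copper and 6.19, 4.66 and 5.82 in control, with a log2 fold change of 0.19 ± 0.22 (SE). Its groups overlapped, and 0.05 remained of this estimate without copper replicate 3.

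**Figure D3:**
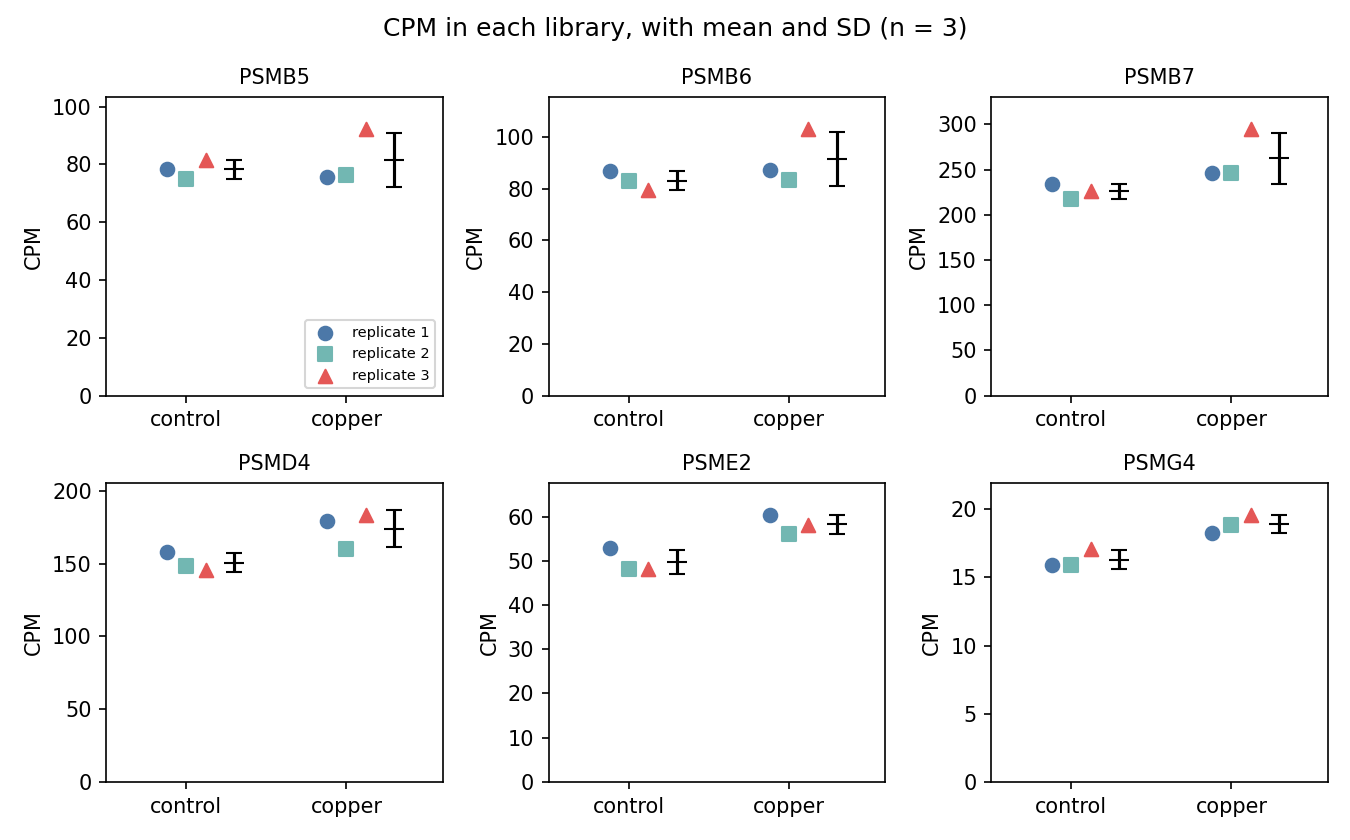
CPM of 6 members in each control and copper library (symbols mark replicates 1, 2 and 3), with the mean and SD of 3 libraries beside them. PSMB5 and PSMB6 overlap between groups, while PSMB7, PSMD4, PSME2 and PSMG4 have every copper library above every control. All but PSME2 are highest in copper replicate 3.

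In the regulatory particle, 16 of 17 base and lid subunits had a higher estimate in copper, none passed the test, and the median was 0.09. All 6 ATPases had higher estimates (median 0.09). PSMC5, the ATPase with the largest, was at 130.0, 122 and 129 CPM in copper and 120.1, 113 and 108 CPM in control, with a log2 fold change of 0.16 ± 0.09 (SE). Its copper libraries all lay above the controls, if by a small margin. PSMC6, the ATPase with the smallest, was at 55.9, 51.3 and 51.1 CPM in copper and 53.7, 52.9 and 50.1 in control. Its values were interleaved, and its log2 fold change was 0.01 ± 0.09 (SE).

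The ubiquitin receptor PSMD4 was at 179, 159.7 and 184 CPM in copper and 158, 149 and 145 CPM in control, with a log2 fold change of 0.21 ± 0.09 (SE). All copper libraries were above all controls, and the unadjusted p was 0.061 in edgeR. PSMD2, a base scaffold that holds ubiquitin-carrying shuttles, was at 489.8, 523 and 490.4 CPM in copper and 488, 485 and 455 CPM in control. It did not overlap between groups, but the gap was small, with a log2 fold change of 0.07 ± 0.09 (SE). PSMD1, the other large scaffold, was at 307, 300.2 and 209 CPM in copper and 267, 253 and 214 in control. Here replicate 3 was the low library in both groups, and the log2 fold change of copper was 0.15 ± 0.17 (SE).

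In the lid, 7 of 8 subunits had higher estimates (median 0.08). PSMD14, the enzyme that cuts ubiquitin chains off the substrate, was at 174, 169.8 and 155 CPM in copper and 157, 153 and 148 CPM in control. Copper was higher in each replicate number but the groups overlapped, with a log2 fold change of 0.12 ± 0.09 (SE). PSMD3, a structural lid subunit, had the lowest estimate, with 182, 180.4 and 173 CPM in copper, 193, 193 and 168 in control, for a log2 fold change of −0.05 ± 0.09 (SE).

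The activators had unlike estimates. PSME1 and PSME2 form the interferon-inducible ring that caps the core, PSME3 forms a nuclear ring, and PSME4 is a single large activator. PSME2 was at 60.4, 56.1 and 58.1 CPM in copper and 52.9, 48.1 and 48.2 in control. All copper libraries were above all controls, and the log2 fold change was 0.23 ± 0.09 (SE), with an unadjusted p of 0.0405 and an adjusted p of 1.00 in edgeR. Its partner PSME1 was at 108, 104 and 132 CPM in copper and 108, 105 and 111 in control, with a log2 fold change of 0.09 ± 0.11 (SE). The excess of PSME1 lay in replicate 3, and without copper replicate 3 the estimate was −0.03.

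PSME3 was at 95.2, 88.9 and 57.0 CPM in copper and 86.2, 86.0 and 62.6 in control, with a log2 fold change of 0.04 ± 0.21 (SE). PSME4 was at 137, 149.9 and 103 CPM in copper and 139.6, 152 and 121 in control, with a log2 fold change of −0.09 ± 0.16 (SE). In both genes replicate 3 was the low library of each group. Without copper replicate 3 the estimates became 0.23 and 0.06. PSMF1, an inhibitor of the core, was at 74.2, 75.7 and 82.0 CPM in copper and 78.8, 83.0 and 73.2 in control. Its groups overlapped, and the log2 fold change was −0.02 ± 0.10 (SE).

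The chaperones of the core had higher estimates in 5 of 5 genes and in every replicate number (median 0.13). PSMG4 was at 18.3, 18.8 and 19.6 CPM in copper and 15.9, 15.9 and 17.1 in control, with a log2 fold change of 0.21 ± 0.10 (SE) and an unadjusted p of 0.0702 in edgeR. POMP, which helps the beta ring close and is the first substrate of the finished core, was at 141, 136 and 146 CPM in copper and 129.7, 130.1 and 131 in control, with a log2 fold change of 0.11 ± 0.08 (SE). Neither gene overlapped between groups. PSMG2, which pairs with PSMG1 to template the alpha ring, had the smallest estimate of the 5, with 55.6, 50.1 and 56.0 CPM in copper, 50.4, 48.5 and 51.4 in control and a log2 fold change of 0.11 ± 0.09 (SE).

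The chaperones of the base had fitted estimates near 0. PSMD5 was at 86.6, 88.2 and 73.8 CPM in copper and 83.9, 82.9 and 77.9 in control, with a log2 fold change of 0.02 ± 0.10 (SE). PSMD10, also known as the oncoprotein gankyrin, was at 92.6, 86.4 and 80.7 CPM in copper and 88.5, 82.8 and 86.9 in control, with a log2 fold change of 0.01 ± 0.09 (SE). The estimate of PSMD9 lay between these 2, but its replicates went in opposite directions. Its copper minus control difference was −0.11, −0.23 and 0.33 in replicates 1, 2 and 3. The median of the 3 base chaperones was 0.01, against 0.13 for the 5 core chaperones, a difference that was not tested.

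Among members with a promoter entry, those with the motif did not stand out from those without it. The median log2 fold change of copper was 0.10 in the 14 members with the motif, of which 12 were higher, and 0.09 in the 25 tested members with a promoter entry and no match, of which 23 were higher. This split was not tested. It leaves out PSMA7, PSMB1, PSMB6, PSMB7, PSMD4 and PSMG3, which had no promoter entry and had estimates from 0.13 to 0.22.

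Of 43 other genes of the pathway 24 had a higher and 19 a lower estimate in copper. Their median log2 fold change was 0.02, and none passed the test. NFE2L1 was at 231, 230.6 and 220.4 CPM in copper and 252, 263 and 253 CPM in control. Every copper library was below every control, and the log2 fold change was −0.17 ± 0.08 (SE), with an unadjusted p of 0.0773 and an adjusted p of 1.00 in edgeR. NFE2L2 was at 211, 205 and 174 CPM in copper and 206, 207 and 182 in control, with a log2 fold change of −0.01 ± 0.11 (SE). These 2 genes and the protease, glycanase, ligase and small MAF partners of NFE2L1 made a list of 8. The list had a median of −0.02, with 3 higher.

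The immunoproteasome group had 7 of 9 genes higher (median 0.13). PSMB8, the inducible partner of PSMB5, was at 61.0, 56.8 and 69.7 CPM in copper and 53.5, 52.1 and 52.6 in control, with a log2 fold change of 0.24 ± 0.10 (SE), an unadjusted p of 0.048 and an adjusted p of 1.00 in edgeR. PSMB9, the inducible partner of PSMB6, was at 19.6, 18.1 and 26.4 CPM in copper and 15.4, 16.7 and 17.6 in control, with a log2 fold change of 0.36 ± 0.16 (SE). Both had all copper libraries above all controls, with copper replicate 3 the highest. Without copper replicate 3 the estimates were 0.16 and 0.18.

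Among 10 proteasome proteins that the symbol rule does not reach, 6 were higher (median 0.02). ADRM1, a ubiquitin receptor of the base, was at 56.0, 51.9 and 56.4 CPM in copper and 49.9, 50.1 and 40.3 in control, with a log2 fold change of 0.23 ± 0.11 (SE) and no overlap. SEM1, the smallest lid subunit, was at 244, 234 and 313 CPM in copper and 226, 211 and 256 CPM in control, with overlap and a log2 fold change of 0.19 ± 0.14 (SE). Without copper replicate 3 the estimate of SEM1 was 0.05, and without control replicate 3 that of ADRM1 was 0.13.

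Of 13 shuttles and VCP partners 6 had a higher estimate (median −0.00197). A separate list of 4 genes, of ubiquitin and its activating enzymes, had 2 higher estimates (median −0.03). UBA6, an activating enzyme of that list, was at 303, 355 and 297 CPM in copper and 351, 347 and 395 in control. Its groups overlapped, and the log2 fold change was −0.20 ± 0.11 (SE). UFD1, a cofactor that hands substrates to VCP, was at 54.5, 53.7 and 52.4 CPM in copper and 48.3, 46.6 and 43.0 in control, with no overlap, a log2 fold change of 0.22 ± 0.09 (SE) and an unadjusted p of 0.0445 in edgeR.

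Because replicate 3 stood apart in both groups, its own contrast was fitted. Replicate 3 against replicates 1 and 2 called 5 members lower (11.1%, against 14.3% of all genes) and 0 higher (against 15.3%; 29.6% in both directions), in edgeR's quasi-likelihood test with Benjamini-Hochberg adjustment. They were 2 activators, PSME3 (log2 fold change −0.57 ± 0.09, SE, adjusted p = 0.00258) and PSME4 (−0.37 ± 0.09, adjusted p = 0.0145), and 3 subunits of the regulatory particle. The latter were the scaffold PSMD1 (−0.41 ± 0.09, adjusted p = 0.0085) and the lid subunits PSMD7 (−0.32 ± 0.09, adjusted p = 0.0209) and PSMD11 (−0.24 ± 0.08, adjusted p = 0.038). PSMD7, the partner of PSMD14, was at 68.9, 64.0 and 53.3 CPM in copper and 63.4, 58.6 and 48.9 in control. PSMD11, which clamps the lid onto the core, was at 115, 116 and 97.7 CPM in copper and 109, 107 and 91.0 in control. In both genes replicate 3 was the lowest library of each group.

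The rings of the core differed in this contrast. The median of replicate 3 against replicates 1 and 2 was −0.08 in the alpha ring (4 of 7 lower), 0.10 in the beta ring (1 of 7 lower), −0.07 among the base ATPases and −0.15 in the lid. No ring subunit was called with all 6 libraries, and these differences between roles were not tested. The count of 5 members rests on which libraries are used, and the share of all genes called moved with it. It was 3 without copper replicate 1 (15.2% of all genes) or without control replicate 1 (23.6%), with PSMD7 and PSMD11 lost in both cases. It was 4 without copper replicate 2 (19.4%) or control replicate 2 (22.7%), with PSMD11 lost, and 5 without copper replicate 3 (11.1%), with PSMC4 gained. It was 21 without control replicate 3 (47.3%), when copper replicate 3 alone stood for the contrast, and these included the ring subunits PSMA1, PSMA2, PSMB3, PSMB4, PSMB5, PSMB6 and PSMB7. PSMD11 was also lost with upper-quartile scaling (adjusted p = 0.071). PSME4 was lost without copper replicate 3 (adjusted p = 0.062).

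The copper effect itself was larger in replicate 3 for 31 of 45 members, with a median difference of 0.13 on the log2 scale against −0.01 over all genes. Only PSMB6 was called (1 of 45, 2.22%, against 2.91% of all genes higher and 8.41% lower, 11.3% in all), with a difference of 0.37 ± 0.11 (SE, adjusted p = 0.0478 in edgeR). Its copper minus control difference was 0.01, 0.01 and 0.38 in replicates 1, 2 and 3. The call was lost without copper replicate 2 (adjusted p = 0.0867), without control replicate 1 (0.102) and without control replicate 2 (0.0628), and in DESeq2 (0.147). All 7 constitutive beta subunits had a positive difference (median 0.20). Replicate 3 has 1 library in each group, so this is a statement about those 2 libraries.

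Transcript length moved with all 3 contrasts. The longest transcript of the members had a median of 1591 bases, against 3376 over the tested genes. Across the 45 members, Spearman's rho with length was −0.39 for copper against control, −0.43 for replicate 3 and −0.48 for the difference of the copper effect. Across 12845 tested genes with a length the same values were −0.37, −0.38 and −0.45. Genes are not independent replicates and share the 6 libraries, so no p is given. The 23 members of up to 1591 bases, most ring subunits among them, had a median of 0.16 for copper, 0.06 for replicate 3 and 0.19 for the difference, and the 22 members from 1670 bases had 0.09, −0.11 and 0.00.

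**Figure D4:**
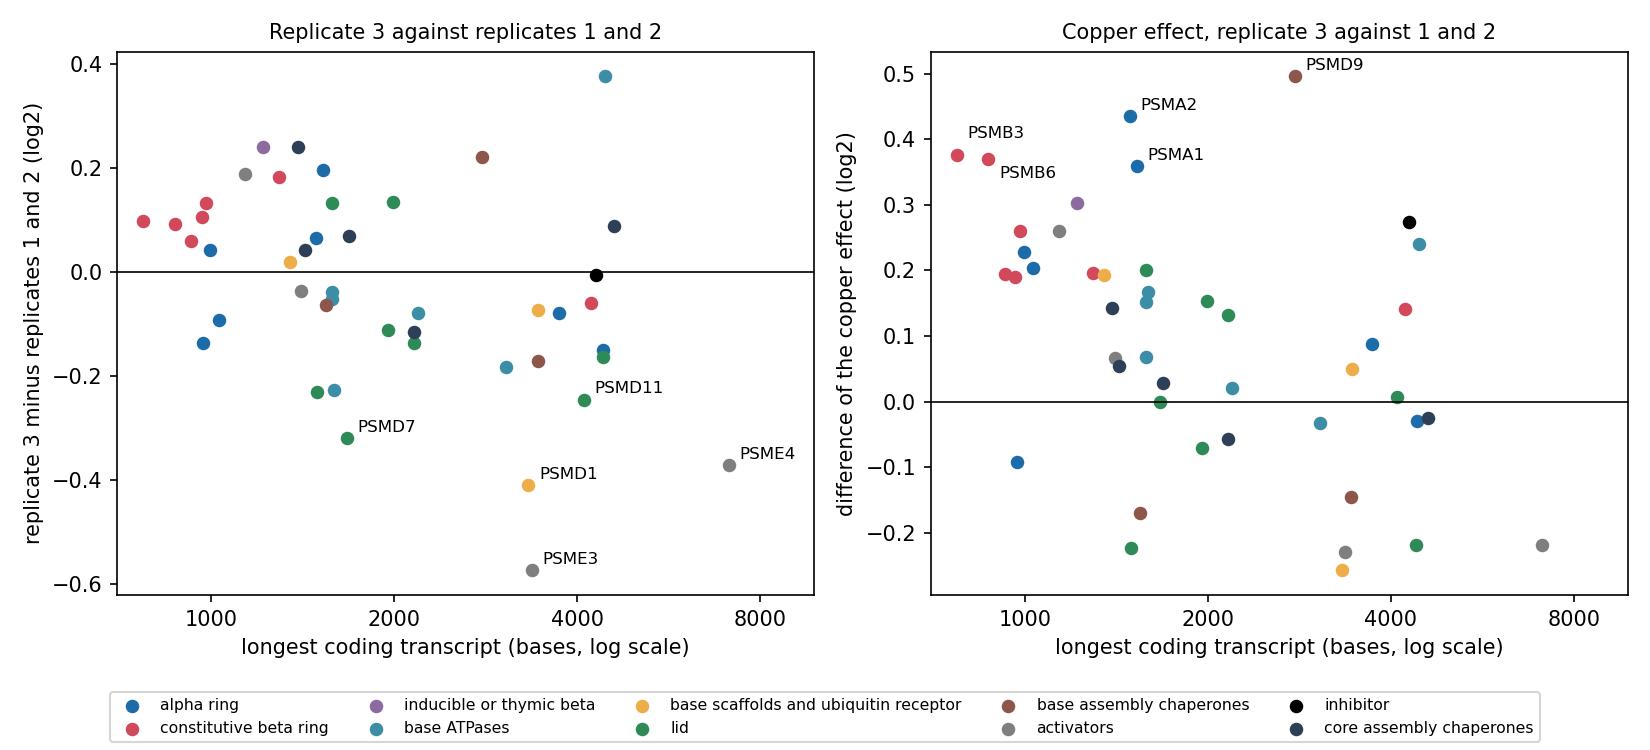
Each tested member by its longest coding transcript (bases, log axis), coloured by role, against replicate 3 minus replicates 1 and 2 (left) and against the difference of the copper effect (right), both in log2. Short ring subunits lie mostly above 0 in both plots, and PSME3, PSMD1 and PSME4, all longer than the median member, lie low on the left; names mark the 5 members called on the left and the 5 above 0.35 on the right.

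The fits were repeated with the trend of counts in transcript length and GC taken out of each library, a step chosen after seeing the data. The members' median for copper was then 0.07, with 35 of 45 higher and 0 called, against 0% of all genes. With the replicate block as well it was also 0.07, with 0 members called, against 1.66% of all genes. The median difference of the copper effect became −0.02 with 0 members called, where 0.162% of all genes were called in place of 11.3%, and PSMB6 had 0.08 (adjusted p = 0.773 in edgeR). Replicate 3 against replicates 1 and 2 then called 15 members (against 34.3% of all genes), with 33 of 45 estimates lower. The 15 held PSME3, PSMD1, PSMD7 and PSMD11 and also the ring subunits PSMA7, PSMB3 and PSMB6, while PSME4 was lost (adjusted p = 0.112). With replicates 1 and 2 alone and no trend taken out, the copper median was 0.09, with 36 of 45 higher.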

How the data were processed

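RNA-seq libraries of 3 copper-adapted and 3 control samples of 786-O cells were prepared with a directional kit, per the labels. A single table of unnormalised counts per gene was deposited, with 25992 rows, of which 5 have no symbol and were left out. The submitters' processing notes name STAR, FastQC, edgeR and GRCh38, with no version or role. The counting program, its use of strand and its treatment of reads that match several genes are not given in the sources used here, so overlapping genes and near-identical copies are uncertain.

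From these counts, genes were filtered with filterByExpr (minimum count 10, minimum total 15), scaled with TMM and tested with edgeR 4.0.16 (R 4.3.3) by the quasi-likelihood test, with Benjamini-Hochberg adjustment over 12944 genes and a threshold of 0.05. DESeq2 1.42.0 and limma-voom (limma 3.58.1) were alternatives, as were RLE and upper-quartile scaling, other filters, a term for replicate 3, replicates 1 and 2 alone, and each library left out in turn. CPM values are TMM-scaled. Intervals are at 95%. The steps were tested on simulated counts with 2-fold changes in 200 genes. For copper against control 184 were recovered, with 13 false calls. For replicate 3 against replicates 1 and 2 the numbers were 180 and 14. For the difference of the copper effect only 113 were recovered, with 8 false calls. The simulation for copper against control held no shift of replicate 3, and changes as small as those of the members were not simulated.

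The replicate numbers come from the sample titles, and the other numbers that the libraries carry are not shared between the groups. Deviations of same-numbered copper and control libraries from their group means correlated at 0.46, 0.40 and 0.65 over 12944 genes, all above 0.1. The numbers were taken to pair the samples in the fits with a block and in the differences by replicate number. Differently numbered libraries were not compared in this way. As replicate 3 stood apart in both groups, these values alone do not show that replicates 1 and 2 pair by number. The main fit of copper against control had no block.

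Transcript lengths, GC content and shared 50-base windows came from GENCODE 29, and promoters from RefSeq GRCh38.p14. All 47 symbols matched RefSeq. Members, lists and roles were chosen with earlier results of these data known. Some genes of the pathway lists are not reported here. Named with their values are the highest and lowest estimate of each role (every tested member in roles of under 3), the catalytic subunits, PSMB10, PSMD4, PSMD14, the activators, PSMF1, POMP, NFE2L1, NFE2L2, PSMB8, PSMB9, ADRM1, SEM1, and the gene of smallest p in each pathway list. Members and partner genes called for replicate 3 or for the difference of the copper effect, PSMA7, PSMC3, PSMD8, and PSMC1 and PSMG4 by level, were added after their values were seen.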

Additional observations from a re-analysis of the deposited data

Results flagged for a closer look

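The copper effect in replicate 3 differed from that in replicates 1 and 2 for PSMB6 and 4 partner genes given here, by the interaction term in edgeR with Benjamini-Hochberg adjustment. PSMB6, a catalytic beta subunit, had a larger effect in replicate 3 by 0.37 on the log2 scale (SE 0.11, adjusted p = 0.0478). The deubiquitinases of the regulatory particle, USP14 and UCHL5, had lower effects, at −0.38 (adjusted p = 0.0352) and −0.40 (adjusted p = 0.0494). USP14 was at 157, 163 and 109.9 CPM in copper and 155, 147 and 136 CPM in control. The shuttle UBQLN1 was lower by this measure at −0.34 (adjusted p = 0.0487), and ERAP1, which trims peptides for antigen presentation, at −0.57 (adjusted p = 0.0236). In these 5 genes copper replicate 3 was the extreme library of its group. With the length and GC trend removed none of the 5 was called, with PSMB6 at 0.0831, USP14 at −0.0459, UCHL5 at 0.0216, UBQLN1 at −0.174 and ERAP1 at −0.246, and none was called in DESeq2 (adjusted p = 0.0694 to 0.147). Leaving out 1 library ended the call of PSMB6, USP14, UCHL5 and UBQLN1 in at least 1 case and that of ERAP1 in none. These calls compare 1 copper and 1 control library with the spread of replicates 1 and 2, and over all genes 11.3% were called.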

How the results depend on the processing

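For copper against control, 0 members were called under every alternative run. Of all genes 0% to 1.66% were called in these runs, so 0 among 45 members is near the share of all genes. The members' median stayed between 0.07 and 0.14, with 0.09 to 0.14 when 1 library was left out. The replicate block gave 0 members called and a median of 0.11, and changed no call. Without PSMA6 and PSMC1 the median was 0.12. No named gene was called under any alternative, but estimates near 0 changed sign. Upper-quartile scaling gave 0.00523 for PSMF1 and 0.00756 for NFE2L2; no filter gave −0.00542 for PSMC6 and −0.0123 for PSMD10; replicates 1 and 2 alone gave −0.0132 for PSMB5, −0.00626 for PSME1 and 0.00983 for NFE2L2. With the length and GC trend removed, PSMB5 was at −0.0433, PSMC6 −0.00661, PSMD10 −0.0542, PSME1 −0.0214 and PSMF1 0.00778, and with the replicate block as well −0.0435, −0.00778, −0.0547, −0.0211 and 0.00435. Leaving out 1 library gave ranges of −0.0416 to 0.107 for PSMB5, −0.0303 to 0.0367 for PSMC6, −0.0454 to 0.0552 for PSMD10, −0.0290 to 0.0984 for PSMD5, −0.0252 to 0.149 for PSME1, −0.104 to 0.232 for PSME3, −0.206 to 0.0575 for PSME4, −0.0666 to 0.0235 for PSMF1 and −0.0718 to 0.0679 for NFE2L2.

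For replicate 3 against replicates 1 and 2, the members' median of −0.0386 became 0.00552 with upper-quartile scaling and −0.0867 to 0.0135 with 1 library left out. The 5 members called (29.6% of all genes) became 15 with the length and GC trend removed (34.3%) and 3 to 21 with 1 library left out (11.1% to 47.3%). For the difference of the copper effect, the 1 member called (11.3% of all genes) became 4 with upper-quartile scaling (11.2%), 4 without a filter (8.7%), 0 in DESeq2 (4.57%), 0 with the trend removed (0.162%) and 0 to 4 with 1 library left out (7.7% to 20.1%). Its median of 0.131 became 0.192 with upper-quartile scaling, −0.0183 with the trend removed and 0.0592 to 0.143 with 1 library left out, and UCHL5 became 0.0216 with the trend removed. Except for the settings that use fewer libraries, the cause was not tested. Depth limits PSMC1 most, whose 14 to 27 counts gave a standard error of 0.31.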
